A study of Mus musculus with 16 samples.

Results

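The genes described here are 10 named components of the NF-kB, TNF and Toll-like receptor system: Tnf, Il6, Il10, Nfkb1, Nfkb2, Relb, Nfkbia, Tnfaip3, Tlr2 and Tlr4. They were followed in mouse white adipose tissue on a microarray, and every probe set that the array's probe table gives to 1 of these symbols alone was taken. This gave 18 probe sets of 45037, for 9 of the 10 genes. No probe set was paired with Nfkb1 in that table, so Nfkb1 was not analysed here. The brightest probe set stands for a gene unless stated otherwise, and 6 of the 9 genes were bright enough to be tested (Tlr2, Tlr4, Nfkb2, Relb, Nfkbia and Tnfaip3), as were 12078 of 18193 genes on the whole array.

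The study crossed loss of Sirt1, which encodes an NAD-dependent protein deacetylase, with a high fat or a low fat diet, and took tissue from C57BL6/J mice aged 12 weeks that had been on the diet for 8 weeks from the age of 4 weeks. The 4 groups of 4 arrays were knockout on high fat diet, knockout on low fat diet, wild type on high fat diet and wild type on low fat diet. Knockout mice carried the FABP4-cre transgene and are described by the labels as lacking Sirt1 in adipocytes. Wild-type mice carried no Cre transgene, so the Cre itself and the loss of Sirt1 cannot be told apart. The Fabp4 promoter is known to be active in macrophages as well as in adipocytes, which limits how far the knockout can be read as one of adipocytes alone. The labels name neither the fat depot nor separate mice, so the p-values reflect the spread among these samples, which may be technical in part.

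Values are log2 expression, so a difference of 1 is a doubling. Sirt1 itself read 8.30, 8.93, 8.81 and 8.93 in the libraries labelled knockout on high fat diet and 9.37, 9.21, 9.44 and 8.94 in those labelled knockout on low fat diet, against 8.85, 9.10, 9.08 and 8.85 in wild type on high fat diet and 9.42, 9.88, 9.02 and 9.41 in wild type on low fat diet. The genotypes overlapped on both diets (limma adjusted p = 0.448 on high fat and 0.498 on low fat), and no source used here places this probe set inside or outside the deletion, so it checks nothing and the genotypes rest on the labels. The 5 adipocyte markers on the array averaged 12.62 to 13.09 on every array, which fits the labelled tissue. In 5 arrays (replicate 4 of knockout on high fat, replicate 2 of knockout on low fat, replicate 3 of wild type on high fat, and replicates 3 and 4 of wild type on low fat) the skeletal muscle gene Tnnt3 reached 8 or more, and replicate 4 of wild type on high fat had epithelial markers at a mean of 7.88, against 3.50 to 4.27 on the other 15 arrays. That array also had skeletal muscle markers at a mean of 7.85, against 7.62 in replicate 4 of knockout on high fat. It was not among the 5 chosen by Tnnt3, so the fits without those 5 still hold an array with muscle transcripts. Calls that are lost without the 5 arrays or without that array, and counts that move by over 1.5 times, are given both ways below.

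Toll-like receptors recognise microbial molecules, and TNF binds its own receptors. Both routes activate IkB kinases, which free NF-kB dimers from inhibitors such as the Nfkbia product IkB alpha and let them switch on genes for cytokines and for their own inhibitors. In adipose tissue macrophages are known as a main source of TNF and carry abundant Toll-like receptors, while adipocytes also respond to both signals. A tissue extract mixes these cells, and in every comparison below fewer cells of a type and less RNA per cell cannot be told apart.

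The stretches before listed starts are shown because several of these genes are textbook targets of NF-kB as well as parts of its control. Each line holds 250 bases ending at the base before a listed start, 5′ to 3′ on the gene's own strand (GRCm38.p6). Capitals mark matches to the kappa B consensus, a motif of 10 bases searched on both strands. The window for Tlr2 is chr3:83841609-83841858 (minus strand) and for Nfkb2 the first of 3 listed at chr19:46304487-46304736 (plus strand). For Nfkbia it is chr12:55492648-55492897 (minus strand), for Tnfaip3 the first of 2 listed at chr10:19015411-19015660 (minus strand) and for Il6 chr5:30012864-30013113 (plus strand). In RefSeq the Tlr2 gene begins at 83841824, inside its window, and the matches marked there lie within the gene. The RefSeq Nfkb2 gene begins at 46300994, before its window, so that whole stretch lies within the gene.
Tlr2: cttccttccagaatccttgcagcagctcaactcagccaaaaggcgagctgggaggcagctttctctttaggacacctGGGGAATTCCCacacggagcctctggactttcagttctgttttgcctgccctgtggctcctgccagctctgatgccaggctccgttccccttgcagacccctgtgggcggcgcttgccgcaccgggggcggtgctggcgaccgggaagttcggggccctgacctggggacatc
Nfkb2: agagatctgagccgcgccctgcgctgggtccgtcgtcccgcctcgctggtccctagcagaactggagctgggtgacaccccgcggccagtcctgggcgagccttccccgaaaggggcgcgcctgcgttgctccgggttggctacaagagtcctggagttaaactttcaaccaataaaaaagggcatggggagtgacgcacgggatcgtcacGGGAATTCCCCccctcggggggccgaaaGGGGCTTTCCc
Nfkbia: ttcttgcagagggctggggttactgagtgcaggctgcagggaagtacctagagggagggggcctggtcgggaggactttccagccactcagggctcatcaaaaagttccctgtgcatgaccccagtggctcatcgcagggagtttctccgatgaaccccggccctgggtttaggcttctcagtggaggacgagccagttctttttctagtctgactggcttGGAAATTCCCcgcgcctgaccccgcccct
Tnfaip3: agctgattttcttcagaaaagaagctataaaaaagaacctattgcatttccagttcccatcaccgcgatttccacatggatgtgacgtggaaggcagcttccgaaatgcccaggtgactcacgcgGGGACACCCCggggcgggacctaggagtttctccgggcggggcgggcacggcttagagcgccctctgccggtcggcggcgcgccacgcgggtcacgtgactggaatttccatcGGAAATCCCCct
Il6: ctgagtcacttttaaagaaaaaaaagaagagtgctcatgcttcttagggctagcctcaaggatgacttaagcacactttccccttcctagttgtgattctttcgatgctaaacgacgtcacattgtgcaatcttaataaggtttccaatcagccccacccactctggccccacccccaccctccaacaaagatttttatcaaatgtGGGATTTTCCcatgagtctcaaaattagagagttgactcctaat
Of the 10 genes, 6 had a window in the sequence table and 5 of these held a match, all but Tnf. Matches stood in 7 of the 9 windows of these 6 genes, and in 3.9% of all 32851 windows in the table. In the windows of Tlr2 and of Nfkb2 shown here 1 match overlaps its neighbour by all but 1 base. A match is a string of letters and not a measured binding site. The 5 genes with a match did not move alike: Tlr2, Nfkb2 and Tnfaip3 were higher on the high fat diet in at least 1 genotype, Nfkbia was lower in wild type, and Il6 was below the level tested.

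Tlr2 was higher on the high fat diet in both genotypes. It encodes a receptor for bacterial lipoproteins that works paired with Tlr1 or Tlr6. Tlr2 read 6.95, 6.70, 6.90 and 6.88 in knockout on high fat and 5.78, 5.89, 5.66 and 5.60 in knockout on low fat. It read 6.15, 6.47, 6.60 and 6.74 in wild type on high fat and 5.50, 5.59, 5.51 and 5.78 in wild type on low fat. All 8 arrays on high fat lay above all 8 on low fat, whichever the genotype, which was also true of Tnfaip3 below. The high fat diet raised Tlr2 by 1.12 ± 0.13 in knockout (log2, SE, 2.18-fold, limma adjusted p = 1.17e-05) and by 0.89 ± 0.13 in wild type (1.86-fold, adjusted p = 7.02e-05). On the high fat diet knockout exceeded wild type by 0.37, with a 95% confidence interval of 0.10 to 0.63 that stays on one side of 0 while the adjusted p of 0.0605 does not pass 0.05. Without wild type on high fat replicate 4, the array with epithelial transcripts, that adjusted p was 0.0342, and it also passed with array weights (0.0185) and with the mean of all probe sets of each gene (0.0433). On the low fat diet the difference was 0.14 (adjusted p = 0.488), and the diet effects in the 2 genotypes differed by 0.23 (adjusted p = 0.405), with an interval of -0.15 to 0.61.

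Tlr4, the receptor for bacterial lipopolysaccharide, gave no difference past the threshold in any comparison on its brightest probe set. It read 9.23, 9.0, 9.27 and 9.40 in knockout on high fat and 8.98, 9.18, 9.23 and 8.73 in knockout on low fat. In wild type it read 8.65, 9.12, 8.77 and 8.74 on high fat and 8.11, 8.93, 8.58 and 9.07 on low fat. The groups overlapped in all 4 pairwise comparisons, and the spread was widest in wild type on low fat (SD 0.43, n = 4). The diet difference was 0.20 in knockout (95% interval -0.20 to 0.59, adjusted p = 0.466) and 0.15 in wild type (-0.25 to 0.54, adjusted p = 0.564). The genotype difference was 0.41 on high fat (adjusted p = 0.155) and 0.36 on low fat (adjusted p = 0.192), with intervals that reach up to 0.80 and 0.75. With arrays weighted by their quality the difference on high fat passed (adjusted p = 0.0301).

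A dimmer probe set of Tlr4 did not give the same answer. With every probe set tested on its own, 1418163_at was 5.68, 6.03, 6.18 and 5.93 in knockout on high fat and 5.21, 5.58, 5.22 and 5.17 in knockout on low fat, without overlap, and rose by 0.66 with the diet in knockout (adjusted p = 0.00781 over 21660 probe sets, of which 14.9% were higher). In wild type it read 5.31, 6.11, 5.72 and 6.0 on high fat and 5.26, 5.57, 5.29 and 5.50 on low fat, a difference of 0.38 that did not pass (adjusted p = 0.0896). Another Tlr4 probe set, 1442827_at, differed by 0.02 in knockout and by -0.18 in wild type. The remaining one, 1430695_at, stayed below 4 on all arrays and was not tested. Which transcripts each probe set reads is not given in the files used here.

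**Figure D1:**
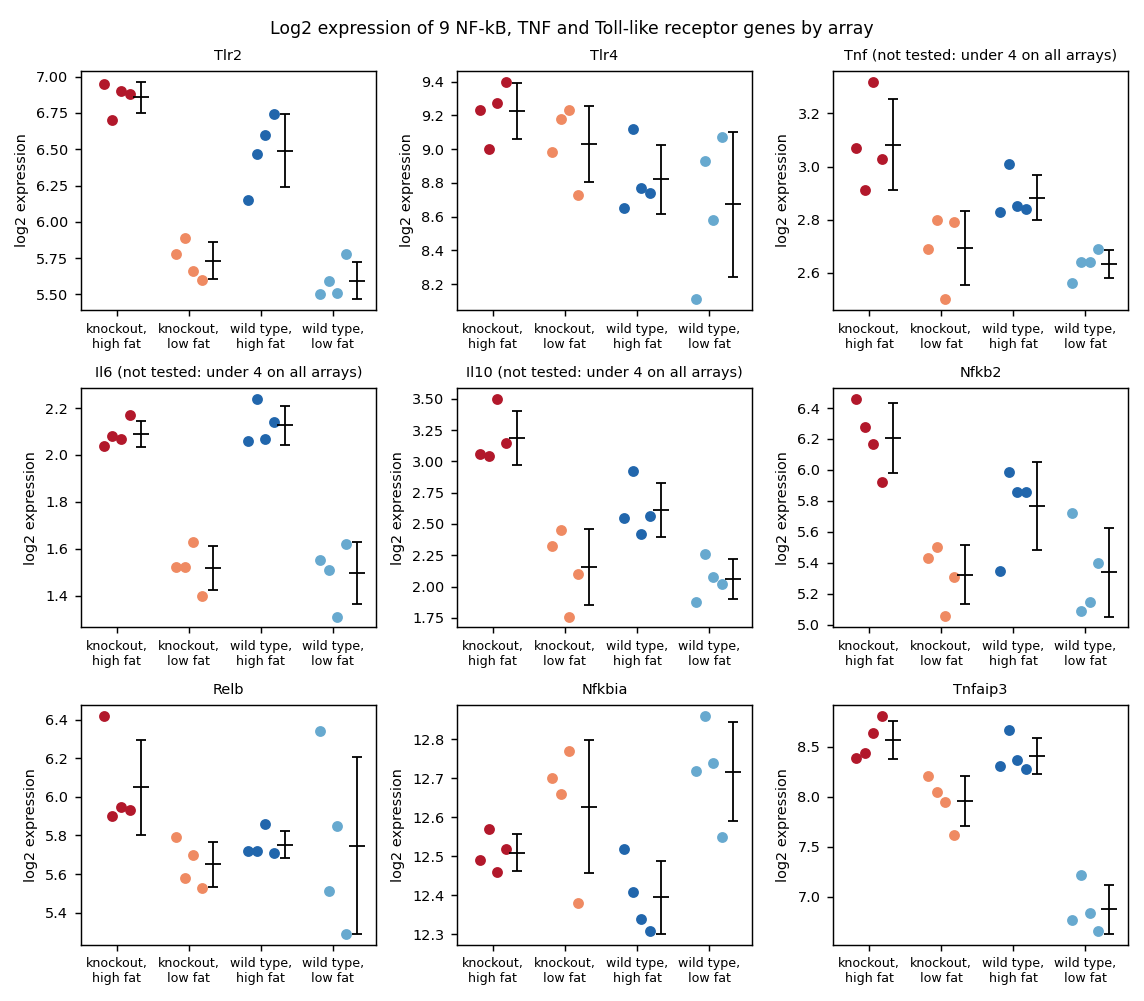
Log2 expression (y axis) of the 9 genes with a probe set, 1 panel per gene, by group (x axis: knockout on high fat, knockout on low fat, wild type on high fat, wild type on low fat), with 1 point per array and a bar for the mean ± SD of 4 arrays. In Tlr2 all high fat arrays lie above all low fat arrays, in Tnfaip3 wild type on low fat lies alone at 6.66 to 7.22, and in Tlr4 the groups overlap.

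The genes for the cytokines themselves gave little signal. Tnf encodes the inflammatory cytokine TNF, Il6 encodes interleukin 6, and Il10 encodes interleukin 10, which restrains inflammatory responses. All 3 stayed below a log2 of 4 on all 16 arrays, under the filter, and at that end of the scale a value depends on the background correction of the array software. They are therefore described by their values, and no size of a difference is given for them.

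Tnf read 3.07, 2.91, 3.32 and 3.03 in knockout on high fat, 2.69, 2.80, 2.50 and 2.79 in knockout on low fat, 2.83, 3.01, 2.85 and 2.84 in wild type on high fat, and 2.56, 2.64, 2.64 and 2.69 in wild type on low fat. Il6 read 2.04, 2.08, 2.07 and 2.17 in knockout on high fat, 1.52, 1.52, 1.63 and 1.40 in knockout on low fat, 2.06, 2.24, 2.07 and 2.14 in wild type on high fat, and 1.55, 1.51, 1.31 and 1.62 in wild type on low fat. Il10 read 3.06, 3.04, 3.50 and 3.15 in knockout on high fat, 2.32, 2.45, 1.76 and 2.10 in knockout on low fat, 2.55, 2.92, 2.42 and 2.56 in wild type on high fat, and 1.88, 2.26, 2.08 and 2.02 in wild type on low fat. In each of the 3 genes every high fat array lay above every low fat array of its own genotype. Among the 5460 genes below 4 on all arrays, 5.66% lay wholly higher with the diet in knockout and 4.16% in wild type.

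When the model was fitted without the filter on 18193 genes, the diet difference passed the threshold for Il6 in knockout (limma adjusted p = 0.00024) and in wild type (adjusted p = 0.000102). Il10 passed as well in knockout (adjusted p = 0.000211) and in wild type (adjusted p = 0.0161), and Tnf passed in knockout (adjusted p = 0.0112) but not in wild type (adjusted p = 0.0818). Among the genes below 4 on all arrays, 3.33% passed as higher in knockout and 3.37% in wild type in the same fit. Between the genotypes on high fat, Il10 passed (adjusted p = 0.0282) with every knockout array above every wild-type array, while 3.66% of those dim genes were wholly higher and 1.58% passed as higher. Tnf (adjusted p = 0.244) and Il6 (adjusted p = 0.872) did not pass there, and on the low fat diet none of the 3 did.

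Among the NF-kB subunits, Nfkb2 was higher on the high fat diet in knockout, while Relb did not pass in any comparison. Nfkb2 encodes p100, which is processed to p52, and Relb encodes the usual partner of p52 in the non-canonical branch of the pathway. Nfkb2 read 6.46, 6.28, 6.17 and 5.92 in knockout on high fat and 5.43, 5.50, 5.06 and 5.31 in knockout on low fat. It read 5.35, 5.99, 5.86 and 5.86 in wild type on high fat and 5.72, 5.09, 5.15 and 5.40 in wild type on low fat. The knockout groups were apart, and in wild type the groups overlapped, since replicate 1 on high fat, at 5.35, lay below 2 of the low fat arrays.

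The diet raised Nfkb2 by 0.88 ± 0.17 in knockout (1.84-fold, limma adjusted p = 0.00117), and the difference of 0.42 in wild type did not pass (adjusted p = 0.0662). That wild-type difference passed when wild type on high fat replicate 1 was left out (adjusted p = 0.0171) and when wild type on low fat replicate 1 was (adjusted p = 0.0238), and also with array weights (0.0372), after quantile normalization (0.0448) and with the mean of both probe sets (0.0395). The test of the difference between the diet effects in knockout and wild type did not pass (0.46, 95% interval -0.06 to 0.98, adjusted p = 0.222). On the high fat diet the genotype difference was 0.44 (adjusted p = 0.0952) and on low fat it was -0.02 (adjusted p = 0.961). The other tested probe set of Nfkb2 differed by 0.11 with the diet in knockout (adjusted p = 0.763) and by 0.41 in wild type (adjusted p = 0.177), so the rise in knockout was seen in 1 of 2 probe sets. With the mean of both the diet difference in knockout was 0.50 (adjusted p = 0.0211) and the interaction 0.08 (adjusted p = 0.833). That second probe set read 5.32, 4.79, 4.99 and 6.04 in wild type on high fat and 5.11, 4.98, 4.72 and 4.68 in wild type on low fat. The 6.04 was replicate 4, the array with epithelial transcripts, and the mean of both was not fitted without it.

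Relb read 6.42, 5.90, 5.95 and 5.93 in knockout on high fat and 5.79, 5.58, 5.70 and 5.53 in knockout on low fat. It read 5.72, 5.72, 5.86 and 5.71 in wild type on high fat and 6.34, 5.51, 5.85 and 5.29 in wild type on low fat. Every knockout array on high fat lay above every knockout array on low fat and above every wild-type array on high fat, and wild type on low fat spanned nearly the range of all groups. The diet difference was 0.40 in knockout (limma adjusted p = 0.111, but 0.0487 in a fit of the knockout arrays alone and 0.0394 without wild type on low fat replicate 1, which had the value of 6.34) and 0.01 in wild type (adjusted p = 0.984). The genotype difference was 0.30 on high fat (adjusted p = 0.294) and -0.10 on low fat (adjusted p = 0.75).

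The 2 inhibitors moved in opposite directions with the diet in wild type. Tnfaip3 encodes A20, a ubiquitin-editing enzyme that shuts off signalling from TNF and Toll-like receptors, and its RNA was clearly lowest in wild type on low fat. Tnfaip3 read 8.39, 8.44, 8.64 and 8.81 in knockout on high fat and 8.21, 8.05, 7.95 and 7.62 in knockout on low fat. It read 8.31, 8.67, 8.37 and 8.28 in wild type on high fat and 6.77, 7.22, 6.84 and 6.66 in wild type on low fat. Knockout on low fat thus lay wholly above wild type on low fat and below both high fat groups, which overlapped each other.

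The high fat diet raised Tnfaip3 by 1.53 ± 0.15 in wild type (2.90-fold, limma adjusted p = 4.1e-06) and by 0.61 ± 0.15 in knockout (1.53-fold, adjusted p = 0.00727). On the low fat diet knockout exceeded wild type by 1.08 ± 0.15 (2.12-fold, adjusted p = 0.000209), while on high fat the difference was 0.16 (95% interval -0.17 to 0.49, adjusted p = 0.53). The diet effect in knockout was smaller than that in wild type by 0.92 on the log2 scale: the interaction was -0.92 ± 0.22 (95% interval -1.39 to -0.46, adjusted p = 0.0125). Without the 5 arrays with muscle transcripts the interaction was -0.86 (adjusted p = 0.132) and the diet difference in knockout 0.56 (adjusted p = 0.0657), neither past the threshold, in a fit with 11 arrays. The second probe set of Tnfaip3 stayed between 1.45 and 2.17 on all arrays and was not tested, so these values rest on 1 probe set. With the mean of both probe sets the diet differences were 0.91 in wild type and 0.34 in knockout and the genotype difference on low fat 0.64. The interaction was -0.57, and all of these passed. The second probe set entered these means below the level tested, so they are no separate check on the first.

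Nfkbia encodes IkB alpha, which holds NF-kB in the cytoplasm and is made again when NF-kB is active. It was lower on the high fat diet in wild type. Its brightest probe set read 12.49, 12.57, 12.46 and 12.52 in knockout on high fat, 12.70, 12.66, 12.77 and 12.38 in knockout on low fat, 12.52, 12.41, 12.34 and 12.31 in wild type on high fat, and 12.72, 12.86, 12.74 and 12.55 in wild type on low fat. The wild-type groups were narrowly apart, with 12.52 the highest on high fat and 12.55 the lowest on low fat, and the knockout groups overlapped through replicate 4 on low fat. The difference was -0.32 ± 0.11 in wild type (limma adjusted p = 0.026) and -0.12 ± 0.11 in knockout (adjusted p = 0.422). The call in wild type was lost in a fit of the wild-type arrays alone (adjusted p = 0.0721) and after quantile normalization (0.0522). It was also lost when wild type on low fat replicate 2 or 3 or wild type on high fat replicate 3 or 4 was left out, with the highest adjusted p of these at 0.0711, and when the 5 muscle-bearing arrays were (adjusted p = 0.12).

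All 5 probe sets of Nfkbia gave a lower value on high fat in wild type, with every high fat array below every low fat array. Tested one by one, their differences were -0.32, -0.33, -0.43, -0.60 and -1.04, and 4 of the 5 passed (limma adjusted p = 0.0311, 0.0647, 0.00585, 0.0105 and 0.000454), beside 17.3% of all probe sets tested that were lower in this comparison. The 5 probe sets read the same gene in the same RNA and are not independent of each other. The largest, 1448306_at, read 9.37, 9.59, 8.85 and 9.20 in wild type on high fat and 10.59, 10.08, 10.57 and 9.96 in wild type on low fat. In knockout the differences of the 5 were -0.12, -0.14, -0.16, -0.42 and -0.48, and none passed. With the mean of the 5 the difference in wild type was -0.55. On the brightest probe set the test of the difference between the diet effects did not pass (0.20, 95% interval -0.12 to 0.52, adjusted p = 0.39).

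**Figure D2:**
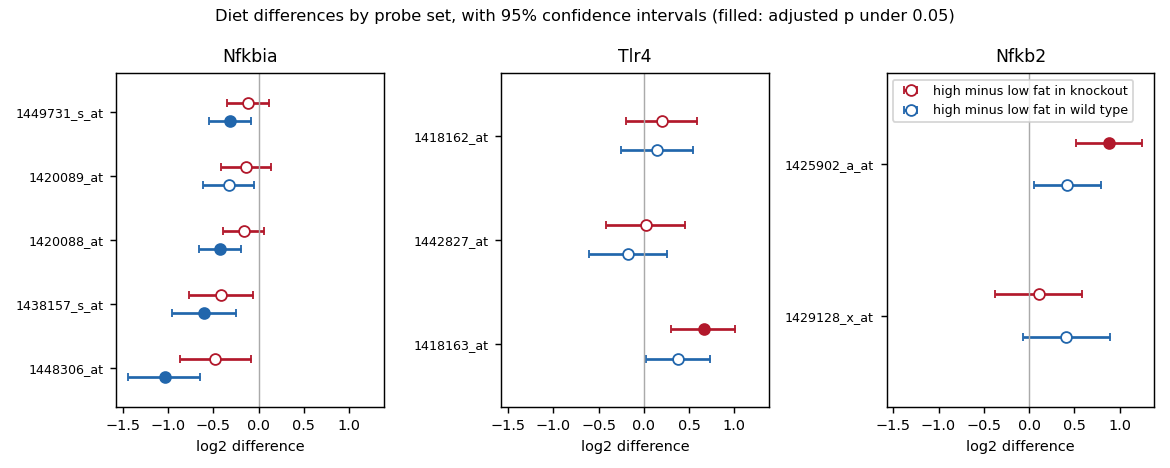
Difference between high fat and low fat (x axis, log2) for each tested probe set (y axis) of the genes with several probe sets, in knockout and in wild type, with 95% confidence intervals and filled points where the limma adjusted p was under 0.05. All 5 probe sets of Nfkbia lie below 0, 4 of them filled in wild type, whereas the probe sets of Tlr4 and of Nfkb2 are not alike.

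Counted over the 6 genes tested, the diet in knockout raised 3 (Tlr2, Nfkb2 and Tnfaip3) and lowered none, against 15.6% of all genes tested that were higher and 13.5% that were lower. The diet in wild type raised 2 (Tlr2 and Tnfaip3) and lowered 1 (Nfkbia), against 20.5% higher and 15.2% lower. The knockout on high fat passed for 0 of 6 by limma, against 15.1% of all genes tested in either direction, and 3 of 6 (Tlr2, Nfkb2 and Tlr4) had an unadjusted p under 0.05, as did 29.6% of all genes. The knockout on low fat raised 1 (Tnfaip3), against 11.7% higher. The interaction passed for 1 (Tnfaip3), with 13.0% of all genes passing in either direction and 7.87% below 0. The 6 genes were at 4 or more on every array, so the filter on low values did not choose them by group. Groups did not overlap for 4 of the 6 as higher with the diet in knockout (Tlr2, Nfkb2, Relb and Tnfaip3), beside 17.6% of all genes tested. With the diet in wild type 2 lay wholly higher (Tlr2 and Tnfaip3) and 1 wholly lower (Nfkbia), beside 17.7% and 13.1%. Relb alone lay wholly higher in the knockout on high fat, beside 14.6%, and Tnfaip3 alone in the knockout on low fat, beside 11.8%.

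The median difference of the 6 genes was 0.51 for the diet in knockout, 0.29 for the diet in wild type, 0.33 for the knockout on high fat and 0.06 for the knockout on low fat. Over all genes tested these medians were -0.02, 0.04, 0.00 and 0.04 in the same order. The 4 pairwise comparisons share groups (knockout on high fat enters both the diet in knockout and the knockout on high fat, for example), so their values are not independent of each other.

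**Figure D3:**
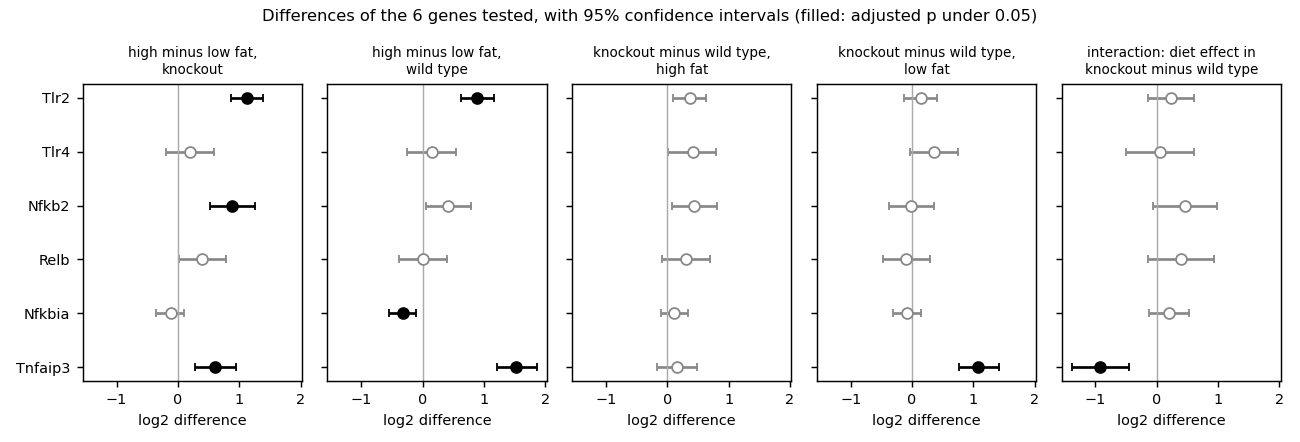
Log2 difference (x axis) of the 6 genes tested (y axis) in each comparison, 1 panel per comparison, with 95% confidence intervals and filled points where the limma adjusted p was under 0.05. Tlr2 and Tnfaip3 are filled in both diet panels, Tnfaip3 alone is filled for the knockout on low fat and for the interaction (-0.92), and no gene is filled for the knockout on high fat.

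The wider pathway was described with 10 lists of related genes, which together held 158 genes other than the 10, with 118 of them tested. The diet in knockout raised 47 and lowered 8 of these 118, and of all genes tested it raised 15.6% and lowered 13.5%. The diet in wild type raised 43 and lowered 3, beside 20.5% and 15.2% of all genes. The knockout on high fat raised 24 and lowered 5, beside 8.58% and 6.47%, and the knockout on low fat raised 16 and lowered 4, beside 11.7% and 7.24%. The counts of each list below with all arrays stand against these same shares. The median differences of the 118 genes were 0.28, 0.33, 0.16 and 0.12 in that order. Without the 5 arrays with muscle transcripts the counts were 40 and 4, 31 and 2, 15 and 2, and 8 and 0. In that fit the shares of all genes called in either direction were 19.4%, 21.3%, 6.74% and 7.0%. There 11.3%, 13.7%, 4.11% and 5.03% of all genes were higher and 8.13%, 7.59%, 2.62% and 1.97% lower. Without wild type on high fat replicate 4, 15.4%, 17.9%, 7.53% and 11.3% were higher and 13.3%, 13.1%, 5.07% and 6.79% lower. List counts below from these 2 fits stand against the shares of the same fit, which were smaller without the muscle-bearing arrays. With all arrays 40.1%, 45.0%, 29.6% and 32.9% of all genes had an unadjusted p under 0.05 by limma, in the same order of comparisons. That share was not computed for the 2 fits with arrays left out, so their unadjusted counts below have no share to stand against. The interaction passed above 0 for 10 of the 118 and below 0 for 10, beside 5.12% and 7.87% of all genes. Without the muscle-bearing arrays these counts were 0 and 4, beside 0.878% and 2.63%. The lists overlap in some genes, and their counts below include genes of the 10 where a list holds them.

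The receptors that sense microbial products are closest to Tlr2 and Tlr4. Of 14 Toll-like receptors and co-receptors tested, 9 rose with the diet in knockout, 9 with the diet in wild type, 7 in the knockout on high fat and 4 in the knockout on low fat. Of all genes 15.6%, 20.5%, 8.58% and 11.7% rose, and none of the 14 fell. The list's median difference was 0.93, 0.76, 0.56 and 0.33 in that order. Without the 5 arrays with muscle transcripts 8, 10, 6 and 4 rose and none fell. Tlr1, a partner of Tlr2, read 10.17, 9.69, 9.48 and 9.54 in knockout on high fat and 7.06, 7.06, 5.58 and 5.90 in knockout on low fat, against 7.41, 8.22, 7.32 and 7.97 in wild type on high fat and 6.77, 5.56, 6.22 and 5.80 in wild type on low fat. Knockout on high fat stood alone at the top, and Tlr1 rose by 3.32 with the diet in knockout (limma adjusted p = 5.72e-06) and by 1.99 in the knockout on high fat (adjusted p = 0.00131).

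Tlr13, a receptor for bacterial ribosomal RNA in mice, did the same. It read 9.92, 9.35, 9.54 and 8.92 in knockout on high fat and 6.03, 5.88, 5.54 and 5.39 in knockout on low fat, against 5.69, 7.69, 5.65 and 7.06 in wild type on high fat and 4.96, 5.02, 5.66 and 5.25 in wild type on low fat. Its difference was 3.72 for the diet in knockout (limma adjusted p = 4.61e-06) and 2.91 for the knockout on high fat (adjusted p = 0.000162). The interaction of Tlr13 was 2.42 and passed, but not without the muscle-bearing arrays (adjusted p = 0.079). Tlr6, the other partner of Tlr2, rose by 1.20 with the diet in knockout (adjusted p = 0.000153), and Cd14, the co-receptor of Tlr4, by 0.95 (adjusted p = 0.000167). Cd180, a Toll-like homologue of B cells and myeloid cells, rose by 2.35 (adjusted p = 3.68e-06), or by 1.43 with values below 4 set to 4, because knockout on low fat was below 4 throughout. Cd180 was also called with the diet in wild type, with a rise of 0.89, where low fat was likewise below 4 throughout. There high fat itself lay near 4, at 3.66, 4.70, 3.42 and 4.05, so little of that rise stood above 4. Cd14 and Tlr6 were named after their values were seen, for their known ties to Tlr4 and Tlr2.

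Lbp, which encodes the protein that carries lipopolysaccharide to Cd14, followed another pattern. It read 11.92, 12.00, 12.10 and 12.16 in knockout on high fat and 11.48, 11.54, 11.13 and 11.80 in knockout on low fat, against 11.51, 11.78, 11.95 and 11.81 in wild type on high fat and 9.58, 10.01, 10.31 and 10.11 in wild type on low fat. Wild type on low fat was lowest by far, and knockout on low fat also lay wholly below knockout on high fat. Lbp rose by 1.76 with the diet in wild type (limma adjusted p = 1.79e-06) and by 1.48 in the knockout on low fat (adjusted p = 1.86e-05). Ly86, the partner of Cd180, rose by 1.03 and 0.79 in these comparisons (adjusted p = 0.000207 and 0.00366), Tlr3, a receptor for double-stranded RNA, by 0.73 with the diet in wild type (adjusted p = 0.000313), and Tlr5, a receptor for flagellin, by 0.54 in the knockout on low fat (adjusted p = 0.016). Lbp and Ly86 were also called with the diet in knockout, with rises of 0.56 and 0.63. That call of Lbp was lost without the muscle-bearing arrays (limma adjusted p = 0.0722).

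**Figure D4:**
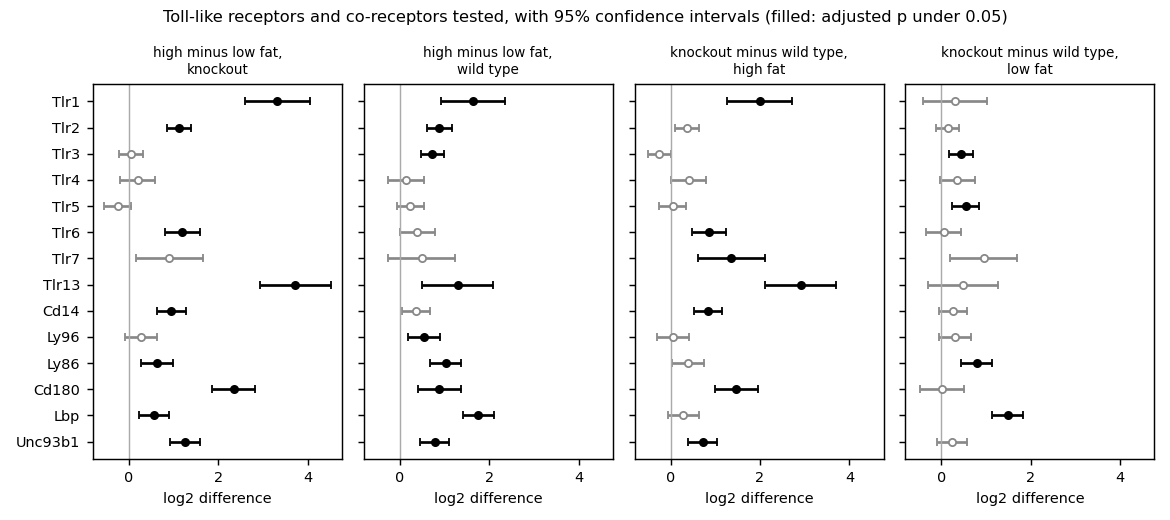
Log2 difference (x axis) of the 14 Toll-like receptors and co-receptors tested (y axis) in the 4 pairwise comparisons, 1 panel per comparison, with 95% confidence intervals and filled points where the limma adjusted p was under 0.05. Tlr1 (3.32) and Tlr13 (3.72) lie farthest right for the diet in knockout and Lbp for the diet in wild type (1.76) and the knockout on low fat (1.48), and no filled point lies below 0.

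Downstream of the receptors, adaptors and kinases held fewer calls. Of 10 Toll-like receptor adaptors tested, 2 rose and 1 fell with the diet in each genotype, and 1 rose in each comparison between genotypes, which is near the shares over all genes. Pik3ap1, an adaptor of phosphoinositide 3-kinase, rose by 2.86 with the diet in knockout (limma adjusted p = 1.81e-06), by 1.51 in wild type (adjusted p = 0.000305) and by 1.90 in the knockout on high fat (adjusted p = 0.000232). Traf6, the ubiquitin ligase that passes the signal to the kinases, fell by 0.41 with the diet in knockout (adjusted p = 0.0196) and fell by 0.53 in wild type (adjusted p = 0.00331). Myd88, the adaptor shared by most of the receptors, rose by 0.48 in knockout (adjusted p = 0.0458), and Tirap, which brings Myd88 to Tlr2 and Tlr4, by 0.86 with the diet in wild type (adjusted p = 0.0159) and by 0.79 in the knockout on low fat (adjusted p = 0.0427). Of these calls, Traf6 for the diet in knockout was lost when the 5 muscle-bearing arrays were left out (adjusted p = 0.0503), and Tirap for the knockout on low fat, the list's only one there, without wild type on high fat replicate 4 (adjusted p = 0.0511).

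Of 10 kinases of the pathway, 3 rose with the diet in knockout, 2 in the knockout on high fat and 1 in the knockout on low fat, and none fell. With the diet in wild type 0 passed by limma, with 2 at an unadjusted p under 0.05, beside 45.0% of all genes. Ikbke, an IkB kinase-related enzyme, read 8.55, 7.72, 7.74 and 7.84 in knockout on high fat and 5.99, 6.12, 6.06 and 6.31 in knockout on low fat, against 6.45, 6.87, 6.49 and 7.41 in wild type on high fat and 6.85, 5.63, 6.38 and 5.86 in wild type on low fat. It was highest in knockout on high fat without overlap, and rose by 1.85 with the diet in knockout (adjusted p = 8.62e-05) and by 1.16 in the knockout on high fat (adjusted p = 0.00757). Map3k14, the kinase that starts the processing of the Nfkb2 product, rose by 0.59 and 0.53 in the same comparisons (adjusted p = 0.00142 and 0.00748). Tab1, which works with a kinase upstream of the IkB kinases, rose by 0.49 with the diet in knockout (adjusted p = 0.0397), and Ikbkg, their scaffold, by 0.44 in the knockout on low fat (adjusted p = 0.0116). Tab1 and Map3k14 were dim. In knockout on low fat Tab1 read 3.95, 3.66, 3.94 and 3.96, all below 4, and Map3k14 4.07, 3.75, 3.93 and 3.88. Map3k14 read 3.96, 4.02, 3.89 and 4.02 in wild type on high fat. When the arrays with muscle transcripts were left out, 2 kinases rose with the diet in knockout and 1 in the knockout on high fat. In the knockout on low fat 0 then passed by limma, with 1 at an unadjusted p under 0.05. Tab1 (adjusted p = 0.113), Ikbke for the knockout on high fat (0.0775) and Ikbkg (0.0561) were then not called.

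Among 9 NF-kB subunits and IkB proteins tested, 4 rose with the diet in knockout, 3 rose and 1 fell in wild type, and 1 rose in the knockout on high fat. In the knockout on low fat 0 passed by limma, with 1 at an unadjusted p under 0.05, beside 32.9% of all genes. Nfkbie, a relative of Nfkbia, went the other way from it: it read 7.95, 7.79, 7.81 and 7.66 in knockout on high fat and 6.76, 7.13, 5.86 and 6.61 in knockout on low fat, against 7.62, 7.72, 7.78 and 7.55 in wild type on high fat and 6.37, 5.95, 6.37 and 6.39 in wild type on low fat. The diet groups were apart in both genotypes, and Nfkbie rose by 1.21 in knockout (limma adjusted p = 0.000277) and by 1.40 in wild type (adjusted p = 7.12e-05). Bcl3, an IkB protein that acts in the nucleus, rose by 1.15 (adjusted p = 0.00215) and 0.74 (adjusted p = 0.0271). Nfkbid, another of these, rose by 1.39 in knockout (adjusted p = 0.000953) and by 0.96 in wild type (adjusted p = 0.00964), which came to 0.80 and 0.21 with values below 4 set to 4. Leaving out the arrays with muscle transcripts gave 4 rises with the diet in knockout and 2 in wild type. In the knockout on high fat 0 then passed by limma, with 2 at an unadjusted p under 0.05. Bcl3 in wild type was lost there (adjusted p = 0.219) and without wild type on high fat replicate 4 (0.0631).

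Of 13 brakes on the pathway tested, Tnfaip3 among them, 6 rose with the diet in knockout and 2 in each of the other 3 comparisons, and none fell. Tnfaip8l2, a negative regulator in immune cells, read 9.75, 9.35, 9.92 and 9.38 in knockout on high fat and 8.00, 8.35, 7.57 and 7.67 in knockout on low fat, against 7.96, 8.82, 8.22 and 8.37 in wild type on high fat and 6.76, 7.32, 7.35 and 7.15 in wild type on low fat. Unlike Tnfaip3 it separated knockout on high fat from wild type on high fat, by 1.26 (limma adjusted p = 0.00113). Zc3h12a, a ribonuclease that destroys cytokine transcripts, rose by 1.21 with the diet in knockout (adjusted p = 0.00062) and by 1.14 in the knockout on high fat (adjusted p = 0.00262), and N4bp1, an inhibitor of the pathway, by 0.72 with the diet in knockout (adjusted p = 0.00755). Without the arrays with muscle transcripts 3 brakes rose with the diet in knockout, 2 with the diet in wild type, 2 in the knockout on high fat and 1 in the knockout on low fat. Tnfaip3 was among those no longer called for the diet in knockout.

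The list of TNF ligands and receptors was mostly dim, with 15 of 36 tested. Of these, 5 rose and 2 fell with the diet in knockout, 8 rose with the diet in wild type, 3 rose and 3 fell in the knockout on high fat, and 3 rose in the knockout on low fat. Tnfrsf12a, the receptor of the ligand TWEAK, read 8.15, 7.52, 8.37 and 8.30 in knockout on high fat and 6.51, 6.46, 6.55 and 5.99 in knockout on low fat, against 6.29, 6.73, 6.45 and 6.98 in wild type on high fat and 5.60, 5.61, 5.62 and 5.82 in wild type on low fat. It separated the genotypes on both diets, by 1.47 on high fat (limma adjusted p = 0.00018) and by 0.72 on low fat (adjusted p = 0.016), the second of which was lost (adjusted p = 0.135) when the muscle-bearing arrays were left out. In that fit 5 of the list rose and 1 fell with the diet in knockout, 4 rose with the diet in wild type, and 2 rose in each comparison between genotypes. Without wild type on high fat replicate 4 the knockout on high fat raised 2 and lowered 2.

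Tnfrsf21, a death-domain receptor, was low in wild type on low fat alone. It read 8.18, 8.70, 8.77 and 8.61 in knockout on high fat and 8.51, 8.64, 8.58 and 8.36 in knockout on low fat, against 8.13, 9.14, 8.60 and 9.04 in wild type on high fat and 5.51, 6.79, 6.72 and 7.21 in wild type on low fat. It rose by 2.17 with the diet in wild type (limma adjusted p = 4.54e-05) and by 1.97 in the knockout on low fat (adjusted p = 0.000298). Tnfrsf1b, the TNF receptor found chiefly on immune and endothelial cells, rose by 1.30 with the diet in wild type (adjusted p = 8.07e-05). It was also called in knockout, with a rise of 0.94. Of 15 genes of TNF receptor signalling, 4 rose and 1 fell with the diet in each genotype, 1 rose in the knockout on high fat and 2 fell in the knockout on low fat. Among them was Ripk3, a kinase of necroptosis, which rose by 1.41 in knockout (adjusted p = 2.05e-05) and by 0.81 in the knockout on high fat (adjusted p = 0.00452), and Casp8, the initiator caspase of death receptors, which rose by 0.71 in wild type (adjusted p = 0.0138). With the muscle-bearing arrays left out, 3 of this list rose with the diet in knockout and 1 with the diet in wild type. By limma 0 then passed in the knockout on high fat (3 at an unadjusted p under 0.05) or on low fat (2 so). Ripk3 in the knockout on high fat (adjusted p = 0.051) and Casp8 (0.131) were lost there. Without wild type on high fat replicate 4, 2 rose with the diet in wild type and 0 passed in the knockout on low fat (3 at an unadjusted p under 0.05).

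The receptors for interleukins 6 and 10 passed where the cytokines themselves were too dim to test. Il10ra, the ligand-binding chain of the interleukin 10 receptor, rose by 1.32 with the diet in knockout (limma adjusted p = 0.000166) and by 1.02 in wild type (adjusted p = 0.00115), and Il10rb, its partner, by 0.77 (adjusted p = 0.000205) and 0.52 (adjusted p = 0.00361). Il6ra, the interleukin 6 receptor, fell by 1.02 with the diet in wild type (adjusted p = 1.35e-05) and fell by 0.73 in the knockout on low fat (adjusted p = 0.000684). Over the 10 genes tested of this list, 3 rose and 1 fell with the diet in each genotype, 2 rose in the knockout on high fat, and 1 rose and 1 fell in the knockout on low fat. A fit without the muscle-bearing arrays gave 1 rise and 1 fall with the diet in wild type. In the knockout on low fat 0 passed there by limma, with 1 at an unadjusted p under 0.05. The calls of Il10rb in wild type (adjusted p = 0.12) and Il6ra in the knockout on low fat (0.0582) were lost. Without wild type on high fat replicate 4, 2 rose and 1 fell with the diet in wild type.

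Of 20 textbook NF-kB target genes tested, 11 rose and 3 fell with the diet in knockout, 11 rose and 1 fell with the diet in wild type, 4 rose and 2 fell in the knockout on high fat, and 3 rose and 1 fell in the knockout on low fat. Lcn2, which encodes the iron-scavenging protein lipocalin 2, read 10.92, 10.09, 10.95 and 11.03 in knockout on high fat and 6.24, 6.62, 5.87 and 7.14 in knockout on low fat, against 6.93, 7.04, 6.05 and 6.70 in wild type on high fat and 5.34, 4.21, 5.90 and 6.14 in wild type on low fat. Knockout on high fat stood far above the other groups, with a rise of 4.28 with the diet in knockout (limma adjusted p = 1.67e-06) and of 4.07 in the knockout on high fat (adjusted p = 1.59e-05). The interaction of Lcn2 was 3.00 and passed, but not without the muscle-bearing arrays (adjusted p = 0.0591). Over the 20 targets the interaction passed above 0 for 1 and below 0 for 4. Ccl2, a chemokine that draws monocytes, rose by 3.02 with the diet in knockout (adjusted p = 2.86e-05), and Saa3, an acute phase protein, by 1.89 with the diet in wild type (adjusted p = 0.000126). Both were also called in the other genotype, Ccl2 with a rise of 1.80 in wild type and Saa3 with 1.31 in knockout. In the knockout on high fat Ier3, an early response gene, fell by 0.90 (adjusted p = 0.00532) and Ptgs2, the inducible cyclooxygenase, fell by 1.30 (adjusted p = 0.0175), so the targets did not all go one way. Without the arrays with muscle transcripts the knockout on high fat raised 1 target and lowered 2, and the knockout on low fat raised 2. The diet in knockout raised 9 and lowered 2 in that fit, and the diet in wild type raised 8. Without wild type on high fat replicate 4 the knockout on high fat raised 4 and lowered 1, with Ptgs2 not called (adjusted p = 0.0541).

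Of 14 immediate early genes, whose RNA can change within minutes of handling a tissue, 5 rose with the diet in knockout, 6 with the diet in wild type, 1 in the knockout on high fat and 3 in the knockout on low fat, and none fell. Egr2 rose by 2.84 with the diet in knockout (limma adjusted p = 3.51e-05), by 3.44 in wild type (adjusted p = 6.7e-06) and by 1.69 in the knockout on low fat (adjusted p = 0.00486). Jun rose by 0.71 with the diet in wild type (adjusted p = 0.00216) and by 0.79 in the knockout on low fat (adjusted p = 0.00238), and Atf3 by 3.05 with the diet in knockout (adjusted p = 0.000102) and by 1.88 in the knockout on high fat (adjusted p = 0.00977). After the muscle-bearing arrays were left out, 4 of the list rose with the diet in each genotype. By limma 0 then passed in the knockout on high fat (4 at an unadjusted p under 0.05) or on low fat (3 so). Jun in wild type (adjusted p = 0.0524) and in the knockout on low fat (0.0666), Egr2 in the knockout on low fat (0.0582) and Atf3 in the knockout on high fat (0.068) were then not called. The part of tissue handling in the values of Tnfaip3 and Nfkbia, both of which can respond quickly, was not tested.

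Macrophage markers moved with these genes. The mean log2 level of 9 markers was 10.61 to 10.80 in knockout on high fat, 9.04 to 9.44 in knockout on low fat, 9.36 to 10.18 in wild type on high fat and 8.45 to 8.67 in wild type on low fat, and all 9 were above 4 on at least 1 array. Of the 9, 6 rose with the diet in knockout, 7 with the diet in wild type, 4 in the knockout on high fat and 3 in the knockout on low fat. The 4 neutrophil markers on the array averaged 5.60 to 5.79, 4.02 to 5.75, 4.49 to 4.88 and 3.44 to 4.16 in the same order of groups, with 1 of the 4 below 4 on all arrays. The 5 adipocyte markers averaged 12.62 to 12.78, 12.78 to 13.02, 12.77 to 12.89 and 13.00 to 13.09. Other cell types moved as well. The 4 mesothelial markers averaged 6.90 to 8.14 in knockout on high fat, 8.72 to 9.30 in knockout on low fat, 8.61 to 8.97 in wild type on high fat and 8.07 to 9.46 in wild type on low fat. All 4 fell with the diet in knockout and in the knockout on high fat. The 4 endothelial markers averaged 7.53 to 8.40, 8.37 to 8.58, 8.64 to 9.02 and 8.48 to 8.83 in the same order. All 4 fell in the knockout on high fat, while 1 fell with the diet in knockout and 1 rose with the diet in wild type. Of 4 progenitor markers, 1 fell with the diet in knockout, 2 rose with the diet in wild type, 1 fell in the knockout on high fat and 2 rose in the knockout on low fat. Of 3 dendritic cell markers tested these counts were 2, 2, 1 and 2 in the same directions. The part of cell numbers in the differences of Tlr2, Tnfaip3, Nfkb2 and the pathway lists was not tested.

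**Figure D5:**
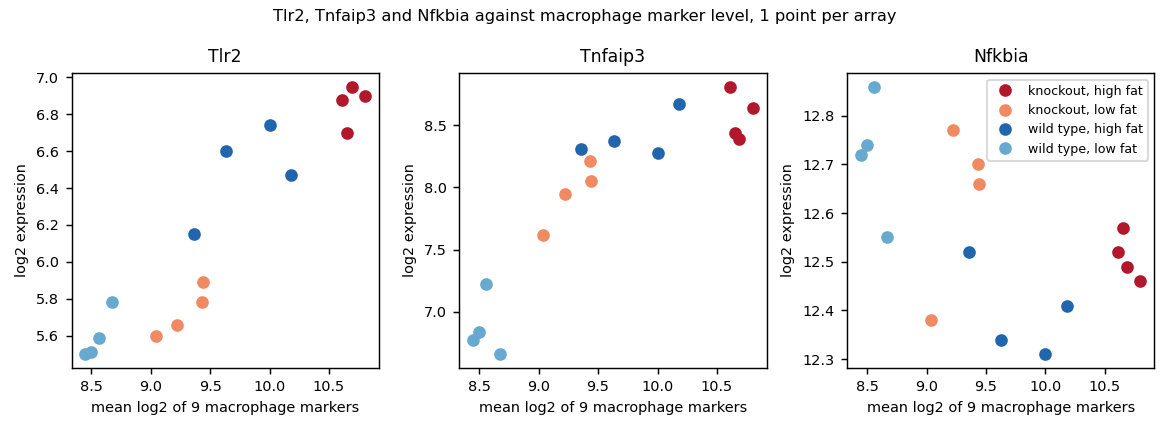
Log2 expression (y axis) of Tlr2, Tnfaip3 and Nfkbia, 1 panel per gene, against the mean log2 level of 9 macrophage markers (x axis), with 1 point per array coloured by group. Knockout on high fat lies farthest right at 10.61 to 10.80 and wild type on low fat farthest left at 8.45 to 8.67, with Tlr2 high on the right, and Nfkbia within 12.31 to 12.86 on all arrays.

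Over the 16 arrays the tested genes whose log2 values followed Tlr2 most closely were Specc1 (Pearson r = 0.969), Dnmt3a (0.967) and Nfam1 (0.967). Those closest to Tnfaip3 were Cdkl4 (0.970), H2-DMa (0.967) and Atp1a4 (0.965), and those closest to Nfkbia were Errfi1 (0.899), Enc1 (0.880) and Slc25a32 (0.878). These are descriptions over 16 arrays that share 4 group means, and no gene was the nearest of more than 1 of the 3.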

How the data were processed

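White adipose tissue RNA of 16 samples was labelled with biotin and hybridized to Affymetrix mouse arrays, per the labels' protocols. What the authors deposited is a log2 value for every probe set. The submitters' processing notes name R (2.11.1) and GCRMA (2.20.0) as the authors' tools, and no source used here records a filter. Values ran from 0.594 to 14.2, array medians from 4.34 to 4.46 and correlations within groups from 0.987 to 0.996. No pair of arrays was identical. The number of arrays limits the precision.

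The probe table gave 1 gene symbol to 34945 of 45037 probe sets, several to 932 and none to 9160. For each of 18193 genes the probe set with 1 symbol and the highest mean was kept. A gene was tested if at least 4 arrays reached a log2 of 4, which left out 6115. All 16 arrays entered a single limma 3.58.1 fit (lmFit and eBayes, R 4.3.3) with a mean for every group, two-sided, with 12 residual and 3.84 prior degrees of freedom. The p-values were adjusted over all genes tested (Benjamini-Hochberg), the threshold was 0.05, and confidence intervals are at 95%. The steps were tested on simulated data.

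The 10 genes and all lists were chosen with earlier results of these data known. All 10 genes were named, and from each list up to 3 genes with the smallest p among those past the threshold in each pairwise comparison, not all of which are printed. For likeness the 3 genes with the highest correlation were named, provisional symbols left out. Alternatives concerned the low-value filter and floor, which arrays and probe sets entered, weights, variance model, scaling, threshold and a block for the replicate number. The labels do not say whether replicate numbers pair arrays. Deviations from group means correlated at -0.321 to 0.199 over 24 same-numbered pairs, with 5 pairs over 0.1, which cannot exclude a pairing.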

Additional observations from a re-analysis of the deposited data

Results flagged for a closer look

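Among 72 groups of 4 arrays examined, 7 held an array far from the other 3, and chance gives about 1 in 20. In Relb, knockout on high fat replicate 1 read 6.42 while the other 3 read 5.90 to 5.95, and wild type on high fat replicate 3 read 5.86 while the others read 5.71 to 5.72. In Tnf, wild type on high fat replicate 2 read 3.01 beside 2.83 to 2.85. In the Nfkbia probe set 1420088_at, knockout on high fat replicate 1 read 11.19 beside 11.40 to 11.44. In the Tlr4 probe set 1442827_at, knockout on low fat replicate 4 read 5.83 beside 6.50 to 6.61 and wild type on low fat replicate 1 read 5.81 beside 6.61 to 6.67. In the Tlr4 probe set 1418163_at, knockout on low fat replicate 2 read 5.58 beside 5.17 to 5.22. The diet effect on Tnfaip3 differed between genotypes by -0.92 on the log2 scale (limma adjusted p = 0.0125).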

How the results depend on the processing

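For the 6 genes tested over 5 comparisons, 864 values under alternatives were set beside their main values. Direction and side of the threshold stayed in 822, while 11 calls were lost, 11 were gained and 20 changed sign, all of the last without a call. Without the filter on low values the genes past the threshold numbered 6 instead of 3 for the diet in knockout (Tnf, Il6 and Il10 added), 5 instead of 3 for the diet in wild type (Il6 and Il10 added) and 1 instead of 0 for the knockout on high fat (Il10). In that fit 3759, 4573 and 1830 of all 18193 genes passed in these comparisons. The knockout on high fat gave 2 with array weights (Tlr2 and Tlr4) and 1 with the mean of a gene's probe sets (Tlr2), where 2038 of 11456 genes passed. The interaction gave 0 by limma at an adjusted p of 0.01 (1 gene had an unadjusted p under 0.05) and 0 without the arrays with muscle transcripts (2 genes). At 0.01 the interaction passed for 576 of all 12078 genes. With all arrays 29.1% of all genes had an unadjusted p under 0.05 for it. Leaving out 1 array at a time gave 3 to 4 for the diet in knockout, 2 to 4 for the diet in wild type, 0 to 1 for the knockout on high fat (1, Tlr2, without wild type on high fat replicate 4) and 1 throughout for the knockout on low fat and the interaction. The fit without wild type on high fat replicate 4 called 1522 of 12078 genes for the knockout on high fat. The replicate number as a block changed no call, with counts of 3, 3, 0, 1 and 1 (interaction of Tnfaip3 adjusted p = 0.0194). Sign changes with array weights were 0.07 for Relb and 0.02 for Nfkbia in the knockout on low fat. For Nfkb2 in that comparison they were 0.02 after quantile normalization and 0.05 with the mean of probe sets. Relb in the diet in wild type was -0.08 with arrays centred on the median and -0.21 without the muscle arrays, where the interaction of Tlr4 was -0.13. With 1 array left out, values ran from -0.04 to 0.28 for Tlr4 and -0.15 to 0.20 for Relb in the diet in wild type, from -0.10 to 0.11 for Nfkb2 and -0.25 to 0.10 for Relb in the knockout on low fat, and from -0.08 to 0.24 for the interaction of Tlr4. The causes were not tested. Over all genes the fit without muscle arrays called 2341, 2567, 814, 845 and 424 genes (diet in knockout, diet in wild type, knockout on high fat, knockout on low fat, interaction), against 3523, 4304, 1818, 2284 and 1569, and array weights called 3424 for the knockout on high fat. With arrays centred on the median, the share of calls that were higher was 44.5% instead of 57.4% for the diet in wild type, 47.5% instead of 61.7% for the knockout on low fat and 49.6% instead of 39.4% for the interaction. The interaction could not be fitted on only the groups compared, since it needs all 4. Signal near background limits Tnf, Il6 and Il10.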
